A study of Arabidopsis thaliana with 4 samples.

Results

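The genes described here are HSA32 (AT4G21320), ROF2 (AT5G48570), ATHSP22.0 (AT4G10250) and AT5G51440, which were picked by locus as genes of the heat shock response. They are 4 genes, each measured by 1 probe set, among the 22746 probe sets of the array that are not controls. The probe sets are 254414_at for HSA32, 248657_at for ROF2, 255811_at for ATHSP22.0 and 248434_at for AT5G51440. Between the genotypes none of the 4 differed by more than the larger of its differences between replicate arrays of a genotype. The difference that came nearest was a lower signal of HSA32 in flc-3, by 0.38 on the log2 scale.

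The samples were whole seedlings of Arabidopsis thaliana in the Col-0 background, with 2 arrays of each of 2 genotypes. The labels give the wild type as FRI and FLC and flc-3 as a gene knockout of AT5G10140, which is FLC, a MADS-box repressor of flowering. In the sample titles the mutant's FRI stands in lower case, and the labels leave its allele unclear. All seedlings had 6 days of constant light on agar with 3% sucrose. Next came 4 days of cycles with 12 h of light and 12 h of dark at 22 °C. They were then moved to constant light of 25 µmol per square metre per second at 27 °C. Each array carried equal amounts of RNA from seedlings taken 24, 30, 36 and 42 h after that move, so each signal is an average over a circadian cycle. The description also lists a temperature of 22 °C, taken here as that of the days before the move. Both genotypes were measured at 27 °C only, so the arrays compare genotypes and hold no measure of the response to warmth. The question behind the comparison, as the series title gives it, is which transcripts FLC acts on at this temperature.

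Plants answer heat by activating heat shock factors, which bind short repeated elements in promoters and switch on genes for chaperones. Small heat shock proteins hold unfolding proteins in a state from which the ATP-driven chaperones HSP70 and HSP101 can refold them. A temperature of 27 °C is warm for Arabidopsis and is used to promote growth and flowering, while heat shock experiments use higher temperatures. HSA32 is a heat-induced protein needed to keep acquired heat tolerance during a long recovery. ROF2, also called FKBP65, is a peptidyl-prolyl isomerase of the FK506-binding protein family, and it modulates the action of the heat shock factor HSFA2 together with its relative ROF1. ATHSP22.0 is a small heat shock protein of the endoplasmic reticulum. AT5G51440 is counted here among the small heat shock proteins, and the gene table used gives it only its locus and clone-based synonyms.

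Array-wide properties were close. The median signal was 47.1 to 48.5 on the 4 arrays, and log2 signals over all probe sets correlated at r = 0.972 between wild-type arrays, 0.98 between flc-3 arrays and 0.968 to 0.974 across genotypes. With 2 arrays a genotype, precision is limited throughout. Of the marker lists, 4 of 5 leaf genes had a named probe set, with signals that summed to 8446 and 8337 on the wild-type arrays and 6758 and 8275 on the flc-3 arrays. All 3 root markers were named, with sums of 3867 and 3182 against 2841 and 3898, of which PYK10 made up nearly all. The dimmer root markers, EXPA7 and EXPA18, read higher on both flc-3 arrays, with log2 differences of 0.69 and 0.34 that did not pass (limma adjusted p = 0.115 and 0.43). Of the 6 seed markers 4 were named, and all 4 were higher in flc-3 with a limma adjusted p of at most 0.000616, with sums of 629 and 464 on the wild-type arrays against 3350 and 3469. None of these named markers was at 0. A control that reads 25S ribosomal RNA gave 1426 on flc-3 replicate 1 and 45.7 to 135 on the other arrays. What part seed-related RNA, root RNA or ribosomal RNA has in the values below was not tested.

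HSA32 read 64.2 and 51.2 on wild type replicates 1 and 2 and 52.7 and 36.4 on flc-3 replicates 1 and 2. Wild type replicate 1 was the highest array and flc-3 replicate 2 the lowest, and the genotypes overlapped, since flc-3 replicate 1 lay just above wild type replicate 2. The mean was 57.7 ± 9.18 (SD, n = 2) in the wild type and 44.5 ± 11.6 (SD, n = 2) in flc-3. The log2 difference, flc-3 minus wild type, was -0.38 ± 0.21 (SE), which is 0.768 of the wild-type level, with a 95% interval from -0.84 to 0.08 (limma, adjusted p = 0.509 over all tested probe sets). That interval runs from 0.557 to 1.06 of the wild-type level, so these arrays do not exclude a reduction of up to 1.79-fold. An unadjusted p at or below that of HSA32, 0.097, belonged to 19% of all tested probe sets, and a difference at least as large for 8.23%. The replicates of flc-3 differed from each other by 0.52, more than the genotypes did, and those of the wild type by 0.32. In RNA from whole seedlings, fewer cells that express a gene and less RNA per cell cannot be told apart. A single array set much of the HSA32 difference, which was -0.12 without flc-3 replicate 2, -0.22 without wild type replicate 1 and -0.64 without flc-3 replicate 1, with adjusted p of 0.98, 0.748 and 0.503.

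ROF2 read 98.3 and 109.9 on the wild-type arrays and 120.2 and 96.8 on the flc-3 arrays. Both the highest and the lowest array were flc-3 arrays, and the wild-type values lay between them. The mean was 104 ± 8.19 (SD, n = 2) in the wild type and 108 ± 16.6 (SD, n = 2) in flc-3. The log2 difference was 0.05 ± 0.14 (SE), with a 95% interval from -0.27 to 0.37 (limma, adjusted p = 0.925), which spans 0.831 to 1.29 of the wild-type level. Among the other FKBP-type immunophilins of a list of 11 loci, AT3G55520 was the 1 other tested gene. It read 55.9 and 60.5 on the wild-type arrays and 71.6 and 74.8 on the flc-3 arrays, a log2 difference of 0.33 ± 0.14 (SE) that did not pass (limma, adjusted p = 0.406).

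ATHSP22.0 read 33.6 and 31.5 on the wild-type arrays and 31.2 and 37 on the flc-3 arrays. The 4 arrays lay close together, with the flc-3 arrays at both ends of the range. The mean was 32.6 ± 1.51 (SD, n = 2) in the wild type and 34.1 ± 4.12 (SD, n = 2) in flc-3, and the log2 difference was 0.06 ± 0.18 (SE), with a 95% interval from -0.34 to 0.47 (limma, adjusted p = 0.93). Its mean lay 0.11 on the log2 scale above the limit for testing, a signal of about 30.8. Whether ATHSP22.0 was above background on these arrays is unknown, because MAS5 detection calls were not analysed here.

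AT5G51440 read 124 and 87.3 on the wild-type arrays and 115 and 87.8 on the flc-3 arrays. Replicate 1 was high and replicate 2 low in both genotypes, so the ranges of the genotypes nearly coincided. The mean was 106 ± 26.1 (SD, n = 2) in the wild type and 101 ± 19.3 (SD, n = 2) in flc-3, and the log2 difference was -0.05 ± 0.19 (SE), with a 95% interval from -0.47 to 0.37 (limma, adjusted p = 0.949). The wild-type replicates of AT5G51440 differed by 0.50 on the log2 scale, a gap as large as or larger than that of 93.9% of tested probe sets. Its flc-3 replicates differed by 0.39, as large as or larger than 93.2%. HSA32 also read higher on replicate 1 than on replicate 2 in both genotypes, whereas ROF2 was lower on replicate 1 in the wild type and higher on it in flc-3, and ATHSP22.0 the reverse.

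**Figure D1:**
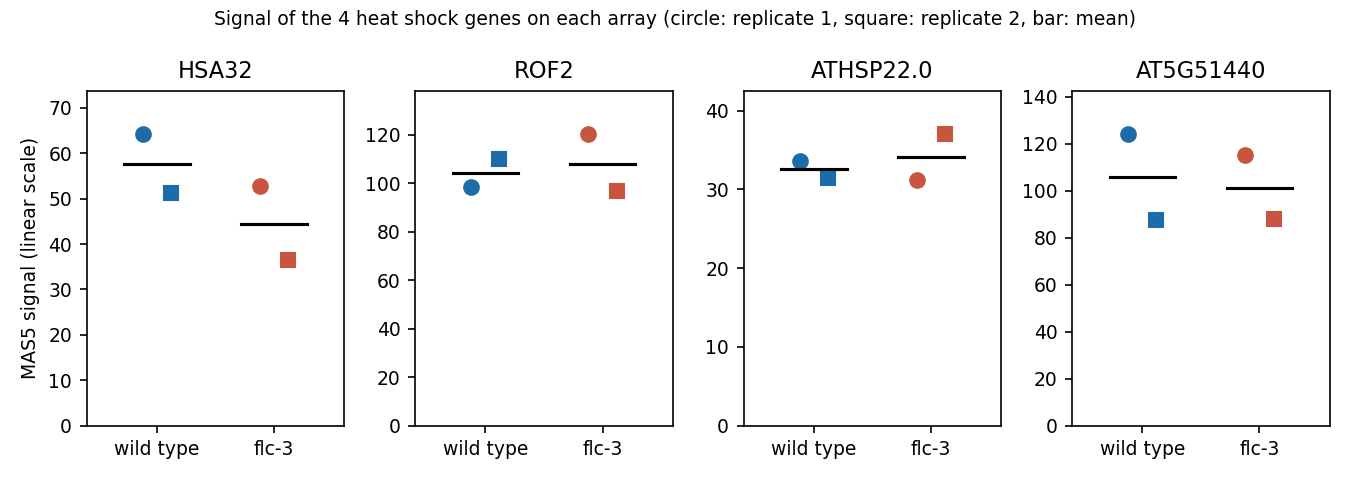
Signal on a linear scale (vertical axis, from 0, a scale of its own for each gene) of HSA32, ROF2, ATHSP22.0 and AT5G51440 on each array, with circles for replicate 1, squares for replicate 2 and bars for the mean of 2 arrays. The genotypes overlap for each of the 4 genes, and HSA32 has the widest gap between means, 57.7 against 44.5.

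Set against the whole array, 0 of the 4 genes passed an adjusted p of 0.05 in limma, where 1.69% of 13648 tested probe sets passed (1.37% higher in flc-3 and 0.315% lower), and 0 of the 4 had an unadjusted p under 0.05, against 12.1%. With so few genes, a count of 0 at a background of 1.69% is no result about these genes. The arrays of the genotypes were fully separated for 0 of the 4, against 43% of tested probe sets. For each of the 4 the genotype difference was smaller than the larger of its replicate differences, which was 0.52 for HSA32, 0.31 for ROF2, 0.24 for ATHSP22.0 and 0.50 for AT5G51440. The median replicate difference over all tested probe sets was 0.16 in the wild type and 0.12 in flc-3. The smallest difference that passed for any probe set was 0.49. With all 4 arrays, the 95% intervals of ROF2, ATHSP22.0 and AT5G51440 lay between -0.47 and 0.47. That does not show equal expression.

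**Figure D2:**
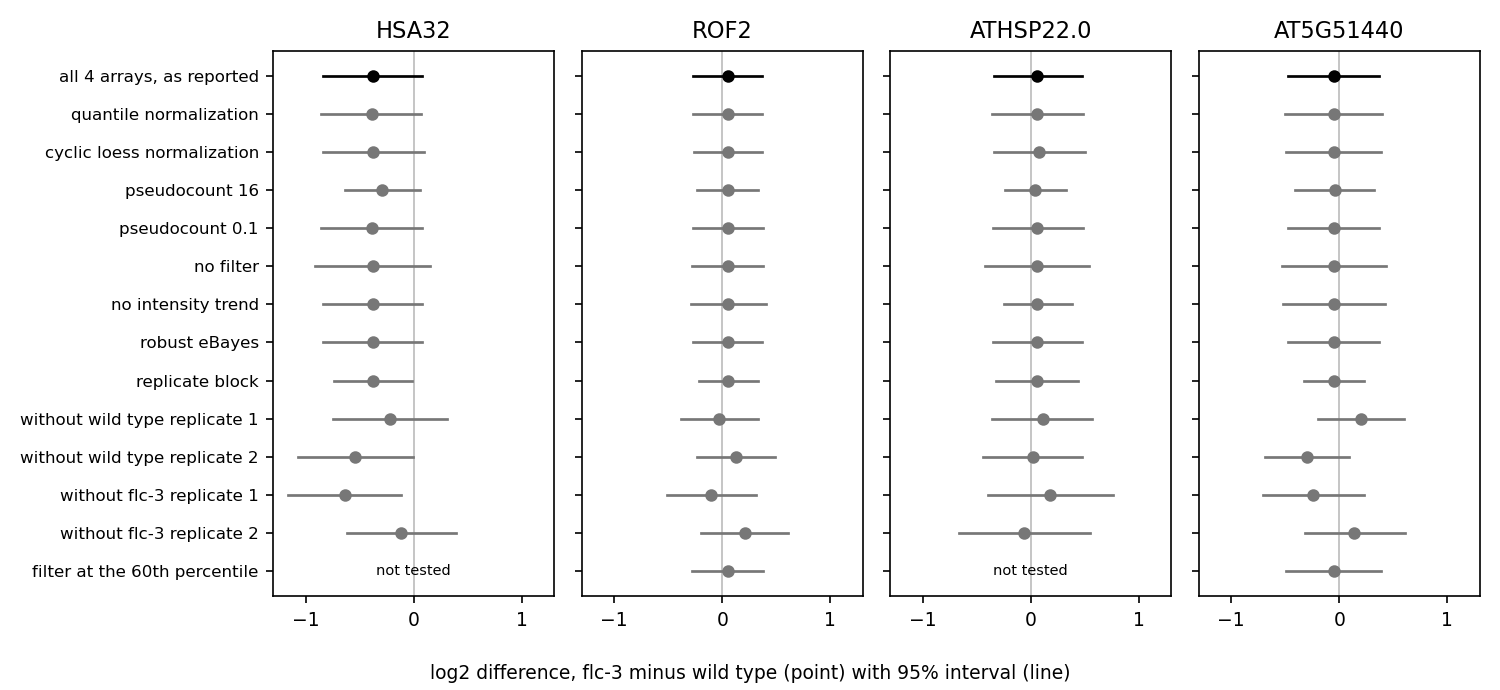
Log2 difference, flc-3 minus wild type (horizontal axis, points), with its 95% interval (lines) for the 4 genes with all arrays and under each other setting (vertical axis). Points for HSA32 lie below 0 in every setting in which it was tested, from -0.64 to -0.12, and those of ROF2, ATHSP22.0 and AT5G51440 move to either side of 0 as single arrays are left out.

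The 4 profiles were compared over the 4 arrays by the root mean square difference between log2 values, each centred on its own mean. This measure is a description of 4 arrays, and genes that vary little are all close to each other on it. Among the 6 pairs the closest were HSA32 and AT5G51440, at 0.18, and the farthest HSA32 and ATHSP22.0, at 0.36. Of 7272 other tested probe sets with a named locus, AT5G01470 was closest to HSA32, at 0.026, with signals of 53.7, 44.1, 45.3 and 32 in wild type replicates 1 and 2 and flc-3 replicates 1 and 2. Next to HSA32 came AT3G59800 (0.043) and DRT101 (0.058), a gene named for DNA damage repair and toleration. Only 0.536% of probe sets lay within 0.1 of HSA32 and 1.66% within 0.1 of AT5G51440, whose nearest were AT1G34270 (0.026), AT1G28070 (0.027) and AT2G43260 (0.032). The flatter profiles had more company, with 10.2% within 0.1 of ROF2 and 14.6% within 0.1 of ATHSP22.0. The nearest to ROF2 were AT5G08630 (0.0096), AT5G06610 (0.015) and AT1G77810 (0.017). The nearest to ATHSP22.0 were AT2G36410 (0.0096), cICDH (0.015), the cytosolic NADP-dependent isocitrate dehydrogenase, and JAL33 (0.016), a jacalin-related lectin.

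Other genes of the heat response were read from 6 lists and a list of co-chaperones and other heat-induced genes. Of the 91 loci in all, 21 had a named probe set and 17 were tested, the 4 genes among them. Of these 17, 1 was higher in flc-3 and 0 were lower in limma at an adjusted p of 0.05, and 3 had an unadjusted p under 0.05. Over all tested probe sets these shares were 1.37%, 0.315% and 12.1%, and single genes among so few are no result about the lists. The median log2 difference of the 17 was 0.04, with 9 above 0, and that of all tested probe sets was -0.01, with 47.5% above 0. The lists of heat shock factors, of the HSP90 and HSP100 families and of chaperonins had 0 named probe sets, so the regulators of HSA32, ROF2 and the small heat shock proteins were not analysed here.

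The list of small heat shock proteins, which includes ATHSP22.0 and AT5G51440, held 11 named genes of 18, of which 7 were tested, and the tested members ran from -0.66 to 1.14 with a median of -0.11. The 1 member that passed was AT4G21870, which read 35.5 and 42.3 on the wild-type arrays and 76 and 98.5 on the flc-3 arrays. Both flc-3 arrays lay well above both wild-type arrays, and the log2 difference was 1.14 ± 0.18 (SE, 95% interval from 0.74 to 1.54, limma adjusted p = 0.00893). It rose alongside the 4 named seed markers given above, and their part in this rise was not tested. AT4G21870 did not pass without flc-3 replicate 2 (log2 difference 0.95, limma adjusted p = 0.0955) or with no limit on dim probe sets (1.14, limma adjusted p = 0.0713), and its wild-type signals lay not far above the limit of 30.8.

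AT1G54050 stood at the other end of the small heat shock proteins. It read 74.1 and 87.6 on the wild-type arrays and 54 and 47.2 on the flc-3 arrays, and both flc-3 arrays lay below both wild-type arrays. The log2 difference was -0.66 ± 0.16 (SE), which did not pass (limma, adjusted p = 0.0844). AT5G54660 gave 65.9 and 58.7 against 41.7 and 46.2, a log2 difference of -0.49 ± 0.16 (SE) that did not pass either (limma, adjusted p = 0.231). AT2G29500 read 119.5 and 121 on the wild-type arrays and 122 and 85.7 on the flc-3 arrays, so that flc-3 replicate 2 alone stood low (log2 difference -0.23, limma adjusted p = 0.62). A further 4 named small heat shock protein genes, AT5G47600, AT5G37670, AT1G53540 and AT1G52560, lay below the limit for testing, with signals from 8.4 to 37.6.

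Co-chaperones steer HSP70 and HSP90. In limma 0 of the 7 tested genes on the list of co-chaperones and other heat-induced genes passed, and 0 of the 3 tested HSP70 genes. These counts say little beside the 1.69% called over all tested probe sets. On the list that holds HSA32 and ROF2, 7 of 18 genes were tested, 5 of them above 0, with a median of 0.05. Hop3, an adaptor between HSP70 and HSP90, read 58.7 on both wild-type arrays and 75.4 and 71 in flc-3, a log2 difference of 0.31 ± 0.14 (SE, limma adjusted p = 0.418). SGT1A, a co-chaperone of HSP90, had a difference of 0.14 (limma adjusted p = 0.742). Of the HSP70 family 3 of 15 genes were tested, AT4G16660 at 0.16, AT3G09440 at 0.07 and Hsp70-2 at -0.01, with adjusted p of at least 0.648.

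**Figure D3:**
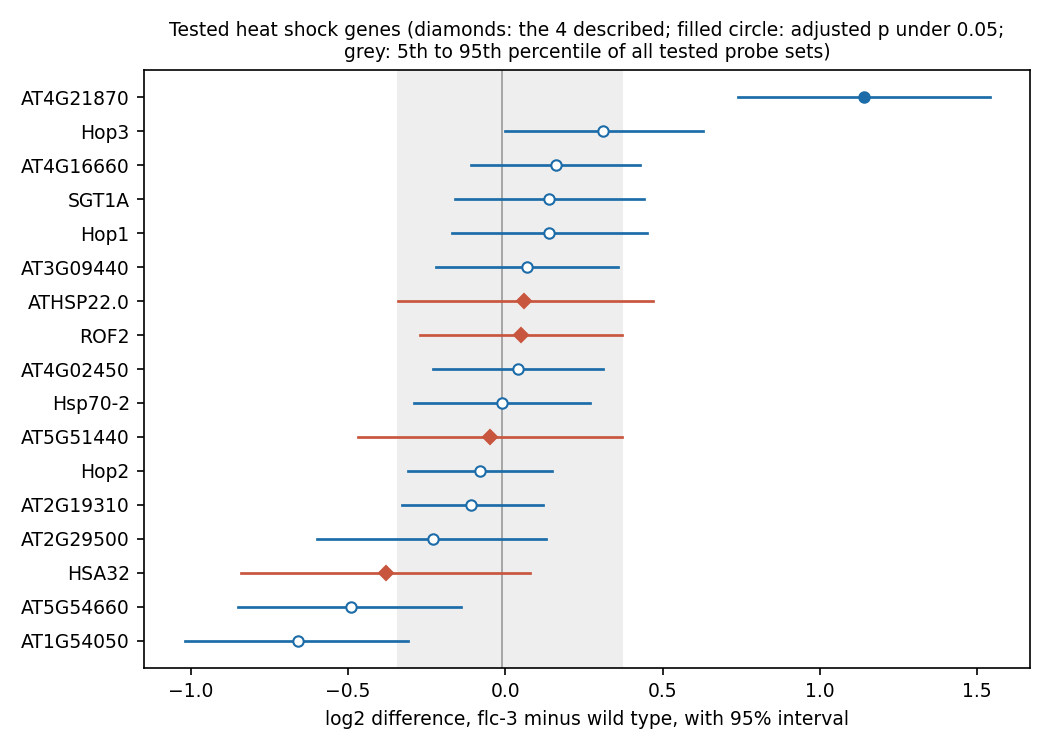
Log2 difference, flc-3 minus wild type, with its 95% interval (horizontal axis) for the 17 tested heat shock genes (vertical axis, ordered by difference), where diamonds mark HSA32, ROF2, ATHSP22.0 and AT5G51440, the filled circle a gene past an adjusted p of 0.05 and open circles the rest. The grey band is the 5th to 95th percentile of all tested probe sets, -0.34 to 0.37, and AT4G21870 at 1.14 is the 1 gene that passed.

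A search of gene symbols and synonyms for the words heat shock, HSP20, DNAJ, chaperone and chaperonin found 4 further genes, all tested and 0 called in limma. They were Cpn60beta4 (-0.21), Cpn60beta3 (0.11) and Cpn60beta2 (-0.08), subunits of the chloroplast chaperonin, and CCS (-0.10), a copper chaperone on none of the heat shock lists. Of 14 genes of growth at warm temperature 1 was tested, the auxin-responsive IAA29, which read 49.9 and 40.2 on the wild-type arrays and 46.8 and 35 on the flc-3 arrays, a difference of -0.14 (limma, adjusted p = 0.835). Like HSA32 and AT5G51440, IAA29 read higher on replicate 1 than on replicate 2 in both genotypes. So did CCS, whereas Cpn60beta4 and Cpn60beta2 read lower on replicate 1 in both. The share of all tested probe sets with either pattern was not counted.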

How the data were processed

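The deposited values are linear signal intensities, 1 per probe set, which the authors made with MAS5 according to the submitters' processing notes (version not given in the sources used here). With 2% trimmed from both ends, all 4 arrays had a mean of 100.01, and this scaling was kept. Of 22810 probe sets, 64 controls were left out, and 13513 of the other 22746 had 1 gene symbol, 503 several and 8730 none in the platform annotation. A gene table of TAIR10.1 updated the symbols and supplied a locus for 13436. No coordinates are printed, since the deposited table states no build. The gene table has no description column, so words were searched in symbols and synonyms.

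Values were taken as log2(value + 1), a scale that understates changes of dim signals. The 13648 probe sets whose mean reached the 40th percentile were tested. Genotypes were compared, 2-sided, with limma 3.58.1 in R 4.3.3 (lmFit and trended eBayes on 2 residual and 7.66 prior degrees of freedom), with Benjamini-Hochberg adjustment over all tested probe sets and a threshold of 0.05. The labels do not state separate cultures for the replicates, so the p-values reflect only the spread among these arrays, possibly a technical one. An exact permutation test of 2 against 2 arrays cannot go below p = 0.333 and was not used. In each of 10 runs on simulated data, 200 probe sets were changed and 13648 were tested. Of the changed probe sets, 10.1% fell below the limit for testing. Among those tested, 91.9% of 2-fold and 99.9% of 4-fold changes were recovered, with 3.64% false calls. The simulated noise was independent between probe sets, with a spread around a smooth trend with signal, much as the fit assumes. Array-wide effects were not simulated, so these rates may be too favourable for the real arrays.

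The genes and lists were chosen with earlier results of these data known. The lists were written from general knowledge of gene families. Named are the 4 genes, in each list every gene that passed and the 3 smallest p among the rest (in each direction for genes found by words), and for each of the 4 genes the 3 nearest profiles. AT5G47600, AT5G37670, AT1G53540 and AT1G52560 were named after their values were seen. Alternatives were 2 normalizations, pseudocounts of 16 and 0.1, a 60th percentile filter or none, untrended and robust eBayes, a block for the replicate number, and each array left out.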

Additional observations from a re-analysis of the deposited data

How the results depend on the processing

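None of the 4 genes passed in any alternative in which it was tested, with adjusted p from 0.263 to 0.98 for HSA32, 0.72 to 0.997 for ROF2, 0.883 to 0.993 for ATHSP22.0 and 0.4 to 0.98 for AT5G51440. HSA32 kept its direction in 12 of 12 alternatives, from -0.64 to -0.12. Its unadjusted 95% interval lay below 0 in 3 of them, with upper ends of -0.01 without wild type replicate 2, -0.12 without flc-3 replicate 1 and -0.02 with the replicate number as a block. Leaving out 1 array turned the direction of the other three, whose cause was not tested beyond the loss of that array. ROF2 read -0.03 without wild type replicate 1 and -0.10 without flc-3 replicate 1, within a range up to 0.21. ATHSP22.0 read -0.06 without flc-3 replicate 2, within a range up to 0.18. AT5G51440 read 0.20 without wild type replicate 1 and 0.14 without flc-3 replicate 2, within a range from -0.30. HSA32 and ATHSP22.0 fell below a filter at the 60th percentile and were not tested there.

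The count of calls over all probe sets, 230, was 121 with no filter, 149 with a filter at the 60th percentile and 147 to 364 with 1 array left out. With the replicate number as a block it was 769, with 1 residual degree of freedom fewer. AT4G21870 kept a log2 difference of 1.14 and an SE of 0.18 in that fit, while its limma adjusted p fell from 0.00893 to 8.47e-09. At an equal difference and SE, such a fall reflects more prior degrees of freedom. The 769 calls therefore do not show that the block lowered the spread. Deviations of same-numbered arrays correlated at r = 0.09, so the numbers were not taken to pair the arrays. Of the 17 heat shock genes tested, 1 passed as reported. With no filter 21 were tested and 0 passed. A filter at the 60th percentile left 11 tested, AT4G21870 not among them, and 0 passed. With 1 array left out, the log2 difference of AT4G21870 ran from 0.95 to 1.32. With the replicate block 2 of 17 passed, AT4G21870 and AT1G54050 (limma adjusted p = 0.00365 for AT1G54050). Signal over background is unknown without detection calls and limits ATHSP22.0 most.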
